A study of Mus musculus with 6 samples.

Results

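Ubiquitin-conjugating enzymes were compared between skeletal muscle of ovariectomized mice given placebo and of ovariectomized mice given 17β-estradiol, a hormone abbreviated E2 in the group names and unrelated to the numbering of the enzyme class. The family was taken as every gene whose symbol begins with Ube2, together with Cdc34, on probe sets that the array annotation gives a single gene symbol. It held 34 of the 18194 genes measured in this way and 82 of the 45101 probe sets, each probe set being several short probes that report 1 transcript. Of the 34 genes, 24 were covered by more than 1 probe set and 10 by a single one. The rule also took Ube2d-ps, which the annotation lists as a long non-coding RNA, and Ube2cbp, named for a protein that binds a conjugating enzyme, and both were kept. Ube2l3 lay only on probe sets with several symbols and was not counted.

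All animals were female C57BL/6 mice whose ovaries had been removed at 4 months of age, so the absence of ovarian hormone was common to both groups and neither held mice with ovaries. The OVX group carried placebo pellets, and the OVX + E2 group carried pellets that delivered 0.18 mg of E2 in the course of 60 days. Each group had 3 samples with an array each, of an Affymetrix design covering the mouse genome. The sources used here do not say whether an array holds RNA of 1 mouse or of a pool, so the p-values reflect the spread among these samples alone, and that spread may be technical. The question was which conjugating enzymes differed in transcript signal with E2. Values are the deposited log2 signals in arbitrary units, differences are OVX + E2 minus OVX, and a difference below 0 is lower with E2. A gene value is the mean of its probe sets on an array, array values are given in the order of replicates 1, 2 and 3, and p-values are unadjusted limma p-values unless called adjusted.

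Ubiquitin is a small protein that cells attach to other proteins to mark them, often for destruction by the proteasome. An activating enzyme charges ubiquitin, a conjugating enzyme carries it as a thioester, and a ligase brings the charged conjugating enzyme to the substrate. The conjugating enzyme often decides which lysine of ubiquitin the next one is joined to, and so the kind of chain that is built: lysine 48 chains are known for sending proteins to the proteasome and lysine 63 chains for signalling and repair. Skeletal muscle is known to use this route to break down contractile proteins when it loses mass.

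As to tissue, left ventricle is given in the sample labels, whereas the series title and the methods name skeletal muscle and soleus. Of 22 skeletal-muscle-restricted genes, 20 were among the brightest 5% of probe sets by their best probe set, and so was 1 of 15 heart-restricted genes. The samples were grouped by treatment, on which the labels and the methods do not differ. The array medians lay between 6.90 and 6.93. Arrays carry no read depth, and their number limits the precision. An exact two-sided permutation test of 3 against 3 has 20 labelings and cannot go below 0.1, so tests rest on the limma fit across all features.

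The start regions of 3 members are shown first, because Ube2v1 and Ube2n work as a pair and both had lower signal in every OVX + E2 array, and because Ube2h had all its probe sets lower. The sequences are the 250 bases before an annotated transcription start, from RefSeq on GRCm38.p6, written 5′ to 3′ on the strand of the gene. Capitals mark the half-site of the palindrome bound by estrogen receptors (GGTCA, or TGACC on the other strand), the Sp1 box (GGGCGG or CCGCCC) and the cyclic AMP response palindrome (TGACGTCA). No base was in 2 of these motifs.
Ube2v1, chr2:167632006-167632255, minus strand: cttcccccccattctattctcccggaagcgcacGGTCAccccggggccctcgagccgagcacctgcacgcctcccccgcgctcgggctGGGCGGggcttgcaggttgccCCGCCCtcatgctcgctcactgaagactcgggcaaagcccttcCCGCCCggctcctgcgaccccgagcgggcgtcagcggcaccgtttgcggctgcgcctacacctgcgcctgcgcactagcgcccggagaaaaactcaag
Ube2n, chr10:95514912-95515161, plus strand: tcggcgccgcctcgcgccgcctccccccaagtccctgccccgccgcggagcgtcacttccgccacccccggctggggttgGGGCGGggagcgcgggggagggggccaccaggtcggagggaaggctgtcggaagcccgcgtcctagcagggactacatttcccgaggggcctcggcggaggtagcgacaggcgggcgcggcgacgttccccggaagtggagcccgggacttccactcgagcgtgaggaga
Ube2h, chr6:30304540-30304789, minus strand: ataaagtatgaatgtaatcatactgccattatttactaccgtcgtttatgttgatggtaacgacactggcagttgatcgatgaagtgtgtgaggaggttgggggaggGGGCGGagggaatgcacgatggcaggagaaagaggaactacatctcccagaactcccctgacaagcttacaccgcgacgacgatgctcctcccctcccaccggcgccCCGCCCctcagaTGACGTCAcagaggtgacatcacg
The Ube2v1 stretch held 1 estrogen half-site, at -217 from the start, and 3 Sp1 boxes, at -162, -141 and -98. The Ube2n stretch held 1 Sp1 box, at -170. The Ube2h stretch held Sp1 boxes at -143 and -36 and the cyclic AMP palindrome at -24, and another annotated start of Ube2h is not shown.

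RefSeq start regions of 300 bases, 250 before and 50 after the start, were matched for 28 of the 34 genes, with 37 starts in all. Ube2d2a, Ube2e3, Ube2g2, Ube2o, Ube2v2 and Ube2w had no entry. The full estrogen response palindrome, GGTCANNNTGACC, which reads the same on both strands, was in 0 of the 37 and in 0.07% of 32851 start regions genome-wide. The half-site was in 19 of the 37 (51.4%), against 40.5% of all start regions. The Sp1 box was in 29 of the 37 (78.4%), against 35.7% of all start regions and 46.2% of those of protein-coding genes. The family's start regions were rich in G and C, with a median of 69% against 52.7% for all. Among the 9 genes lower at an unadjusted p under 0.05, 9 held the Sp1 box and 5 a half-site, and among the 19 other genes with an entry 14 and 13 did. A match is a run of letters, not a bound site, and a window without a match says only that the letters are not in it. The study scanned a longer stretch before the start by predicted binding affinity and reported estrogen response elements for Ube2h. The search here differs in window and method.

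Most members had lower signal in OVX + E2, and the differences were small. Of the 34 genes, 29 lay below 0 (85.3%), where 53.8% of all genes did. The median difference of the family was -0.088, against -0.0073 for all genes. After cyclic loess and after quantile normalization, 23 of the 34 genes lay below 0 and the median was -0.039 and -0.026. The medians of all genes were then -8.5e-05 and 0.0076. One gene, Ube2v1, fell at the threshold of the study's methods, an unadjusted p of 0.001 or less, which 0.319% of all genes passed, 0.286% lower and 0.033% higher. At a looser unadjusted p under 0.05, 9 genes were lower (26.5%), where 9.78% of all genes were, and 0 were higher, where 5.14% were. In 10 genes every OVX + E2 array lay below every OVX array (29.4%, against 12.3% of all genes), and in 0 above (against 10.6%). At a mean log2 value of 8 or more, 7 of 16 members and 33.8% of all genes lay below in this way. Under 8, 3 of 18 members and 7.10% of all genes did. In bulk tissue, fewer cells of a type and less RNA per cell cannot be told apart.

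The counts over probe sets ran the same way. Of 82 probe sets, 66 lay below 0 (80.5%, against 52.3% of all). One passed at 0.001, where 0.213% of all probe sets did (0.197% lower and 0.0155% higher), 23 were lower at a p under 0.05 (28%, against 9.43%) and 2 were higher (2.44%, against 4.35%). In 24 probe sets every OVX + E2 array lay below every OVX array (29.3%), and in 2 above (2.44%), where 11.4% and 9.76% of all probe sets did so. At a mean log2 value of 8 or more, 19 of 40 members and 33.6% of all probe sets lay below in this way. Under 8, 5 of 42 members and 6.14% of all did. Of the 24 genes with several probe sets, 14 had all of them below 0, 9 had some on each side and 1 had all above. No probe set or gene of the array passed a Benjamini-Hochberg adjusted p of 0.05 in limma, where 6216 probe sets and 2715 genes had an unadjusted p under 0.05, and the smallest adjusted p was 0.308 over probe sets and 0.269 over genes. The adjusted p of the members ran up to 0.869 by gene.

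**Figure D1:**
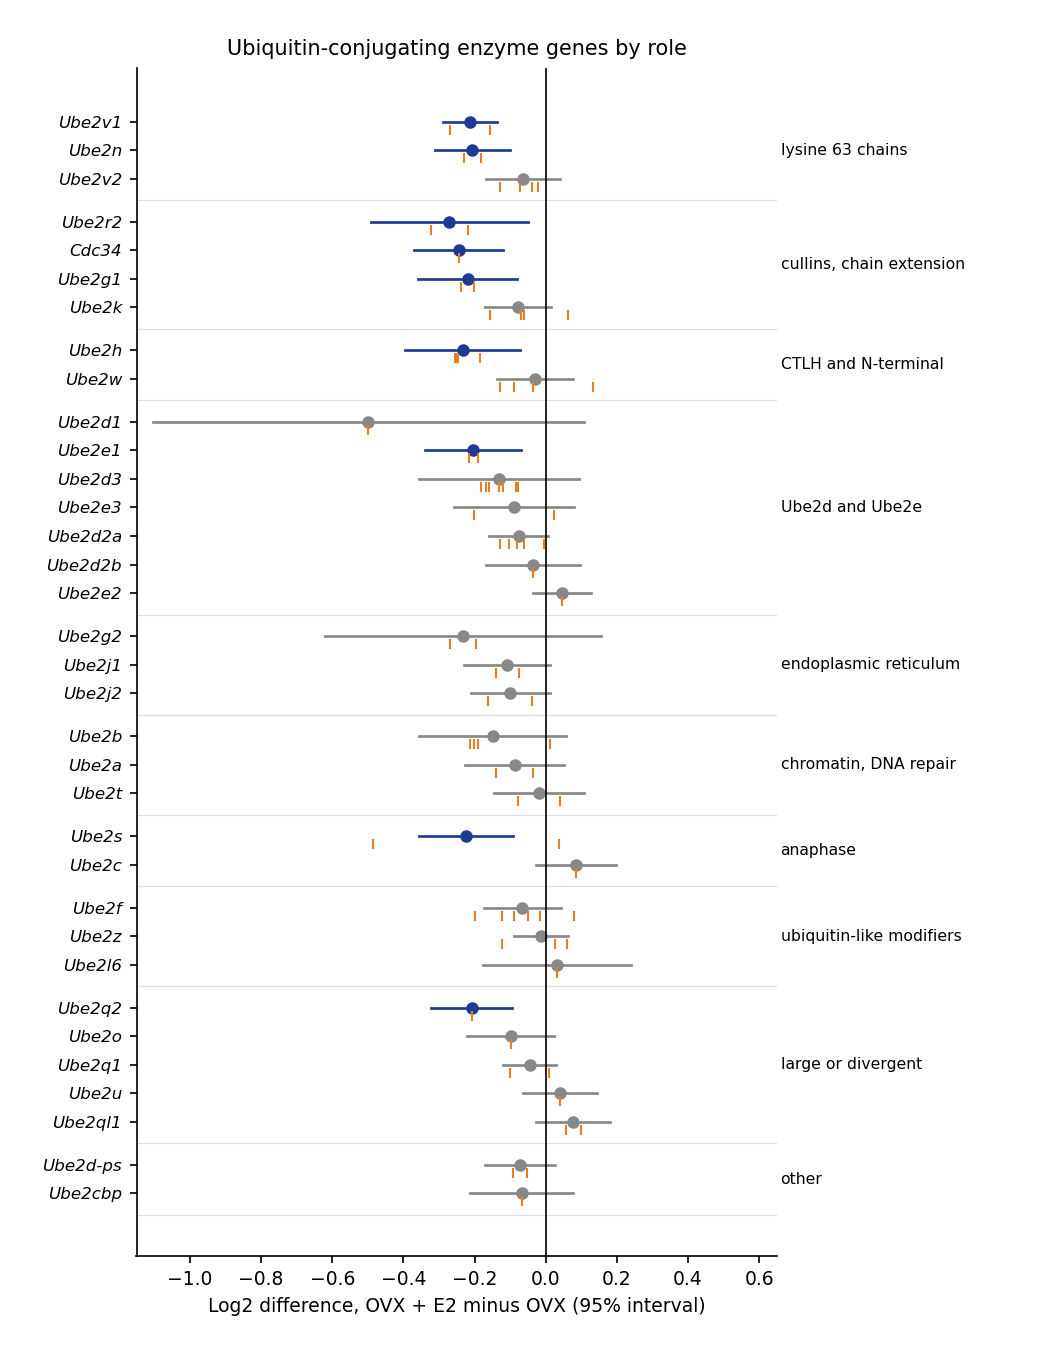
Log2 difference, OVX + E2 minus OVX, of the 34 genes grouped by role (horizontal axis). Dots are the gene differences with 95% intervals from limma, blue where the unadjusted p is under 0.05, and orange ticks are single probe sets. The 9 blue genes lie between -0.27 and -0.20, Ube2d1 lies lowest at -0.50 with an interval that crosses 0, and 5 genes lie above 0.

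The first role taken is the formation of lysine 63 chains. Ube2n is the conjugating enzyme that builds lysine 63 chains, and Ube2v1 and Ube2v2 are variants without a catalytic cysteine that pair with it and orient the acceptor ubiquitin. All 3 genes lay below 0, 2 of them at an unadjusted p under 0.05, and all 8 of their probe sets lay below 0. Over all genes 53.8% lay below 0 and 9.78% were lower at that p. Among genes with a mean log2 value of 8 or more, such as Ube2v1, these shares were 92.1% and 32.5%. Ube2v1 (chromosome 2, 167607639 to 167632020, GRCm38.p6) measured 10.18, 10.16 and 10.22 in the OVX arrays and 9.97, 10.001 and 9.96 in the OVX + E2 arrays. The OVX + E2 arrays lay close together and all below the lowest OVX array. The difference was -0.21 ± 0.032 (SE), a linear ratio of 0.862, with an unadjusted p of 0.00031 in limma.

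Both Ube2v1 probe sets separated the groups. The dimmer one measured 10.03, 9.96 and 10.05 in the OVX arrays and 9.73, 9.79 and 9.71 in the OVX + E2 arrays, a difference of -0.27 ± 0.043 (SE) with an unadjusted p of 0.00041, and it was the only member probe set at the 0.001 threshold. The brighter one, whose identifier marks probes that can match several transcripts, measured 10.34, 10.37 and 10.40 in the OVX arrays and 10.20, 10.21 and 10.22 in the OVX + E2 arrays. It was lower by 0.16 as deposited, with an unadjusted p of 0.0031, and higher by 0.016 after quantile normalization. The threshold call of the dimmer one was lost after cyclic loess (p of 0.012) and after quantile normalization (p of 0.039), at differences of -0.12 and -0.10. It was also lost when OVX replicate 1 (p of 0.0025), OVX replicate 3 (p of 0.0017), OVX + E2 replicate 1 (p of 0.0026) or OVX + E2 replicate 3 (p of 0.002) was left out, at differences between -0.26 and -0.25. The gene value of Ube2v1 passed the threshold without OVX replicate 2 (p of 0.00078) and missed it without any other single array, with p-values from 0.00101 to 0.0021 and differences from -0.23 to -0.20.

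Ube2n (chromosome 10, 95515162 to 95545658) measured 8.07, 8.04 and 8.18 in the OVX arrays and 7.88, 7.92 and 7.87 in the OVX + E2 arrays. OVX replicate 3 was highest, and no OVX + E2 array reached an OVX array. The difference was -0.21 ± 0.045 (SE), with an unadjusted p of 0.0025, and both probe sets were lower, by 0.18 and 0.23. After cyclic loess the difference was -0.15 with a p of 0.0082. Ube2v2, whose heterodimer with Ube2n is known from DNA damage tolerance, had 4 of 4 probe sets below 0, by 0.022 to 0.13, and a gene difference of -0.065 (p of 0.19) with overlapping groups.

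Enzymes that extend chains, most of them with cullin ligases, had the lowest median of the 10 roles. Cdc34 and Ube2r2 are close relatives that build lysine 48 chains with cullin-RING ligases, and Ube2g1 extends such chains alongside them. Ube2k also makes lysine 48 chains. All 4 genes lay below 0, 3 of them at a p under 0.05, with a median of -0.23, and 5 of 10 probe sets were lower at that p. The 3 had mean log2 values of 8 or more, and of all genes at that level 92.1% lay below 0 and 32.5% were lower at that p. Cdc34 (chromosome 10, 79682193 to 79688398), on a single probe set, measured 10.68, 10.81 and 10.80 in the OVX arrays and 10.60, 10.51 and 10.45 in the OVX + E2 arrays. The lowest OVX array was replicate 1 and the highest OVX + E2 array was also replicate 1. The difference was -0.24 ± 0.053 (SE), with an unadjusted p of 0.0024 in limma.

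Ube2g1 measured 9.81, 9.76 and 9.90 in the OVX arrays and 9.68, 9.63 and 9.50 in the OVX + E2 arrays, with the groups apart. Its difference was -0.22 ± 0.059 (SE) (p of 0.0074), and both probe sets were lower, by 0.24 and 0.20. Ube2r2 measured 9.03, 8.77 and 9.09 in the OVX arrays and 8.82, 8.60 and 8.66 in the OVX + E2 arrays. Here OVX + E2 replicate 1 lay above OVX replicate 2, so the groups overlapped, and the difference was -0.27 ± 0.093 (SE) with a p of 0.023. Both Ube2r2 probe sets were lower, by 0.22 and 0.32. Ube2k was lower by 0.077 with a p of 0.091, and 4 of its 5 probe sets lay below 0. After cyclic loess Cdc34, Ube2g1 and Ube2r2 stayed below 0, at -0.10, -0.081 and -0.17, with p-values of 0.09, 0.11 and 0.087.

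Ube2h is known as the conjugating enzyme of the CTLH ligase, a large ring-shaped complex, and is highly expressed in maturing red cells. All 4 of its probe sets were lower, by 0.25, 0.25, 0.25 and 0.19, the first 3 at a p under 0.05 and without overlap. Those 3 had mean log2 values of 8 or more. Of all probe sets at that level 90.4% lay below 0, 32.8% were lower at that p and 33.6% lay lower without overlap. Ube2h as a gene had a mean of 9.12, and of all genes between 9 and 10, 94.0% lay below 0 and 35.8% were lower at that p. The gene (chromosome 6, 30211289 to 30304539) measured 9.27, 9.14 and 9.31 in the OVX arrays and 9.07, 9.07 and 8.88 in the OVX + E2 arrays. OVX + E2 replicate 3 was lowest and OVX replicate 3 highest, and the groups did not overlap. The gene difference was -0.23 ± 0.068 (SE), a linear ratio of 0.85, with an unadjusted p of 0.011. The brightest of them, also marked for cross-matching, measured 9.99, 9.87 and 10.02 in the OVX arrays and 9.71, 9.70 and 9.71 in the OVX + E2 arrays, and its p of 0.00105 lay just above the threshold, whereas the Ube2v1 probe set lay below it. Without both arrays numbered 3 the gene difference was -0.14 (p of 0.052).

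Of the 6 measured erythroid markers, 1 lay below 0 and 0 passed a p of 0.05. Their summed level, a sum of log2 values, was 40.9 to 41.7 in OVX and 40.5 to 43.5 in OVX + E2. Their part in the Ube2h result was not tested. Ube2w, which attaches ubiquitin to the N terminus of substrates, had 3 of 4 probe sets below 0 and 1 higher by 0.13, at a p of 0.036 and without overlap. The gene measured 7.10, 7.01 and 7.03 in the OVX arrays and 7.01, 7.09 and 6.95 in the OVX + E2 arrays, with overlapping groups and a difference of -0.031 (p of 0.52).

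**Figure D2:**
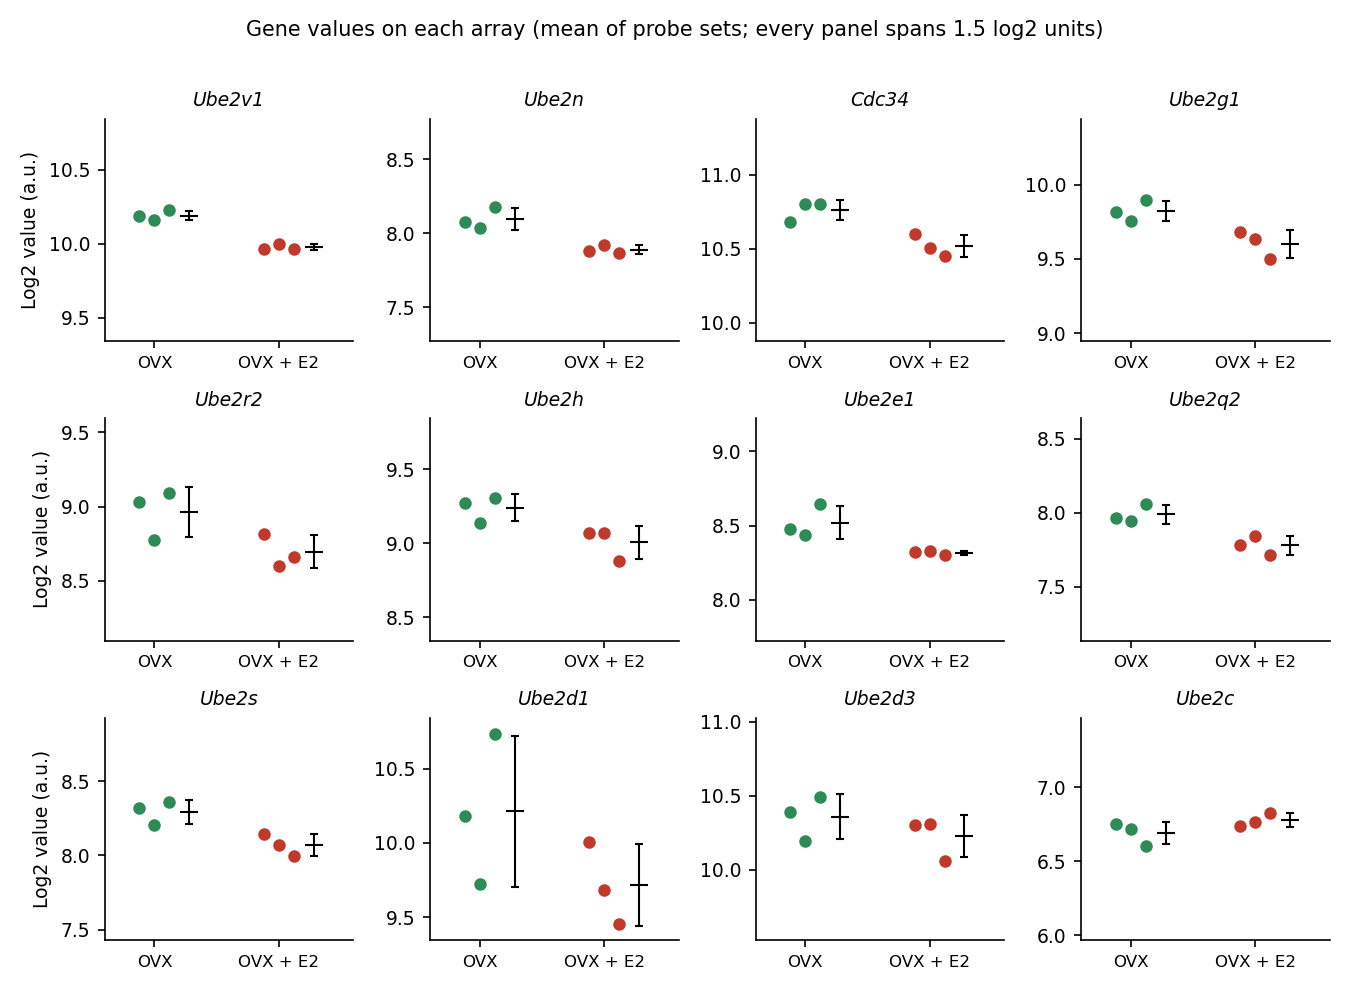
Log2 value (a.u.) of 12 members on each array, in order of replicate number, with the mean and SD of each group (n = 3) as a black bar. Every panel spans the same range, so that distances can be compared, though values of different genes cannot. Ube2v1, Ube2n, Cdc34, Ube2g1, Ube2h, Ube2e1, Ube2q2 and Ube2s separate the groups, whereas Ube2r2, Ube2d1, Ube2d3 and Ube2c overlap.

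The Ube2d and Ube2e enzymes work with many RING ligases and often place the first ubiquitin on a substrate. Of 7 genes, 6 lay below 0 as deposited, 1 of them, Ube2e1, at a p under 0.05, and 4 of 19 probe sets were lower at that p. Over all genes 53.8% lay below 0, and 9.78% of genes and 9.43% of probe sets were lower at that p. Among genes with a mean log2 value of 8 or more, 92.1% lay below 0 and 32.5% were lower. Ube2d1, Ube2d2a, Ube2d3 and Ube2e1 lay at that level. Ube2e1 measured 8.47, 8.44 and 8.65 in the OVX arrays and 8.32, 8.33 and 8.30 in the OVX + E2 arrays. The OVX + E2 arrays lay close together and below all OVX arrays, of which replicate 3 was highest. The difference was -0.20 ± 0.057 (SE) (p of 0.009), and it was carried at that p by the dimmer of its probe sets (p of 0.0085), the brighter one being lower by 0.22 with a p of 0.1.

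Ube2d1 had the largest difference of the family and also the largest spread. It measured 10.18, 9.72 and 10.74 in the OVX arrays and 10.01, 9.69 and 9.45 in the OVX + E2 arrays. OVX replicate 3 stood far above the other OVX arrays, OVX replicate 2 lay within the OVX + E2 range, and OVX + E2 replicate 3 was lowest. The difference was -0.50 ± 0.26 (SE), with an interval from -1.10 to 0.11 and a p of 0.093. Without OVX replicate 2 it was -0.74 (p of 0.012), and without both arrays numbered 3 it was -0.11 (p of 0.56).

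The broadly expressed Ube2d2a and Ube2d3 differed by less. Ube2d2a measured 8.22, 8.17 and 8.17 in the OVX arrays and 8.11, 8.15 and 8.07 in the OVX + E2 arrays, with no overlap but a difference of -0.076 (p of 0.066). All 5 of its probe sets lay below 0, 2 of them at a p under 0.05, by 0.13 and 0.10, and the gene was higher by 0.0039 after cyclic loess and by 0.017 after quantile normalization. Ube2d3 had all 7 probe sets below 0, by 0.077 to 0.18, none at a p under 0.05, and the gene difference of -0.13 (p of 0.21) became 0.013 after cyclic loess, 0.036 after quantile normalization and 0.016 without both arrays numbered 3. Ube2e3, which is imported into the nucleus once charged, had 1 probe set lower by 0.20 (p of 0.025) and a dim one at 0.024, with the gene at 7.69, 7.62 and 7.89 in the OVX arrays and 7.69, 7.62 and 7.62 in the OVX + E2 arrays and a difference of -0.089 (p of 0.25). Ube2d2b was at -0.036 (p of 0.55) and Ube2e2 at 0.045 (p of 0.24).

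The enzymes of the endoplasmic reticulum, which ubiquitinate misfolded proteins pulled out of that compartment, lay below 0 without passing. Ube2j1 and Ube2j2 are anchored in its membrane and Ube2g2 is recruited to it. All 6 of their probe sets lay below 0, and 1, of Ube2j1, was lower at a p under 0.05 (-0.14, p of 0.044). These genes had mean log2 values of 8 or more, where 92.1% of all genes lay below 0 and 32.5% were lower at that p. The gene differences were -0.11 for Ube2j1 (p of 0.073), -0.10 for Ube2j2 (p of 0.07) and -0.23 for Ube2g2 (p of 0.2). Ube2g2 measured 9.42, 9.35 and 9.42 in the OVX arrays and 9.17, 9.52 and 8.79 in the OVX + E2 arrays, so OVX + E2 replicates 2 and 3 were the highest and the lowest of all arrays.

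The chromatin and DNA repair enzymes did not pass either. Ube2a and Ube2b, both homologues of yeast Rad6, ubiquitinate histone H2B and also serve the N-degron route of protein breakdown, and Ube2t works with the Fanconi anaemia ligase. Ube2b was lower by 0.15 (p of 0.13), with 3 of 4 probe sets below 0, by 0.19 to 0.21. Ube2a was lower by 0.087 (p of 0.18) as deposited and higher by 0.041 after cyclic loess and by 0.057 after quantile normalization. Ube2t was at -0.019 (p of 0.73).

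Of the enzymes of the anaphase-promoting complex, Ube2s was lower as a gene and Ube2c did not pass, and the difference between them was not tested. Ube2c primes substrates of that complex and Ube2s extends lysine 11 chains on them, a task known from dividing cells. Ube2s measured 8.32, 8.20 and 8.36 in the OVX arrays and 8.14, 8.07 and 7.996 in the OVX + E2 arrays as a gene, with the groups apart and a difference of -0.22 ± 0.056 (SE) (p of 0.0051). Its probe sets did not move together. The bright one measured 10.48, 10.23 and 10.52 in the OVX arrays and 10.14, 9.85 and 9.78 in the OVX + E2 arrays, the largest difference of any member probe set at a p under 0.05, -0.48 ± 0.11 (SE) with an unadjusted p of 0.0032. The dim one measured 6.16, 6.18 and 6.20 in the OVX arrays and 6.15, 6.29 and 6.21 in the OVX + E2 arrays, with a difference of 0.036 (p of 0.46). The identifier of the bright one marks probes that can match several transcripts, so the value of Ube2s is uncertain. Ube2c measured 6.75, 6.72 and 6.61 in the OVX arrays and 6.74, 6.76 and 6.83 in the OVX + E2 arrays, with overlapping groups and a difference of 0.085 (p of 0.12), the highest of the family. Of 14 genes known from growing cells, 6 lay below 0 and 0 passed a p of 0.05.

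Enzymes for ubiquitin-like modifiers lay near 0 as genes. Ube2f conjugates NEDD8 to cullin 5, Ube2l6 carries the interferon-induced ISG15, and Ube2z takes ubiquitin or FAT10 from the activating enzyme Uba6. Ube2f had 2 of 6 probe sets lower at a p under 0.05, by 0.20 and 0.12. The identifier of the first marks probes that can match several transcripts. Without cross-matching probe sets the Ube2f gene difference was -0.027 (p of 0.57). Ube2z had 1 of 3 lower (-0.12, p of 0.028) and the other 2, both dimmer, above 0. The lower probe sets of both genes had mean log2 values of 8 or more, where 90.4% of all probe sets lay below 0 and 32.8% were lower at that p. As genes Ube2f measured 8.21, 8.21 and 8.29 in the OVX arrays and 8.16, 8.25 and 8.12 in the OVX + E2 arrays, and Ube2z 7.15, 7.22 and 7.17 in the OVX arrays and 7.15, 7.18 and 7.18 in the OVX + E2 arrays, with overlap in both. Their differences were -0.066 (p of 0.19) and -0.013 (p of 0.7), each becoming 0.011 after cyclic loess. Ube2l6 was at 0.031 (p of 0.74).

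The large or divergent enzymes were split. Ube2o is a large enzyme that also selects its own substrates, known from red cell maturation. Ube2q1 and Ube2q2 carry a long N-terminal extension, and Ube2ql1 is a relative of theirs. Ube2q2 measured 7.96, 7.95 and 8.06 in the OVX arrays and 7.78, 7.85 and 7.71 in the OVX + E2 arrays, without overlap, a difference of -0.21 ± 0.048 (SE) (p of 0.0036) that after cyclic loess was -0.15 (p of 0.0099). Ube2q1 measured 8.01, 7.97 and 7.94 in the OVX arrays and 7.93, 7.91 and 7.93 in the OVX + E2 arrays, also without overlap, a difference of -0.045 (p of 0.2) that became 0.023 after cyclic loess and 0.038 after quantile normalization. One of its probe sets was lower by 0.10 (p of 0.034) and the other was at 0.0096.

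Ube2ql1 was the only gene with several probe sets that all lay above 0. One of them measured 7.17, 7.22 and 7.23 in the OVX arrays and 7.27, 7.31 and 7.33 in the OVX + E2 arrays, with the groups apart and a difference of 0.10 (p of 0.036). As a gene Ube2ql1 was at 0.078 (p of 0.12). Ube2o was at -0.10 (p of 0.1) and Ube2u at 0.04 (p of 0.4). Ube2d-ps was at -0.072 (p of 0.12) and Ube2cbp at -0.068 (p of 0.3).

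The differences of the members followed their signal, as those of all probe sets did. Of the 40 member probe sets with a mean log2 value of 8 or more, 40 lay below 0, and so did 90.4% of all 8643 probe sets at that level. Their median was -0.16, against -0.13 for all such probe sets, and 19 of the 40 were lower at a p under 0.05, against 32.8%. Of the 42 dimmer member probe sets, 26 lay below 0, against 43.3% of all, with a median of -0.036 against 0.012. By genes, 16 of 16 members at 8 or more lay below 0, against 92.1% of all genes there, with a median of -0.21 against -0.12. The 9 genes at an unadjusted p under 0.05 comprised 7 of these 16 and 2 of the 18 dimmer members, Ube2n and Ube2q2. Of all genes, 32.5% of those at 8 or more and 4.28% of the dimmer ones were lower at that p. Ube2n, at a mean of 7.99, and Ube2q2, at 7.89, lay just under the cut. Of all genes between 7 and 8, 8.84% were lower at that p, and of those between 8 and 9, 28.9%. Array signal depends on the probes and does not rank the transcripts of different genes.

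**Figure D3:**
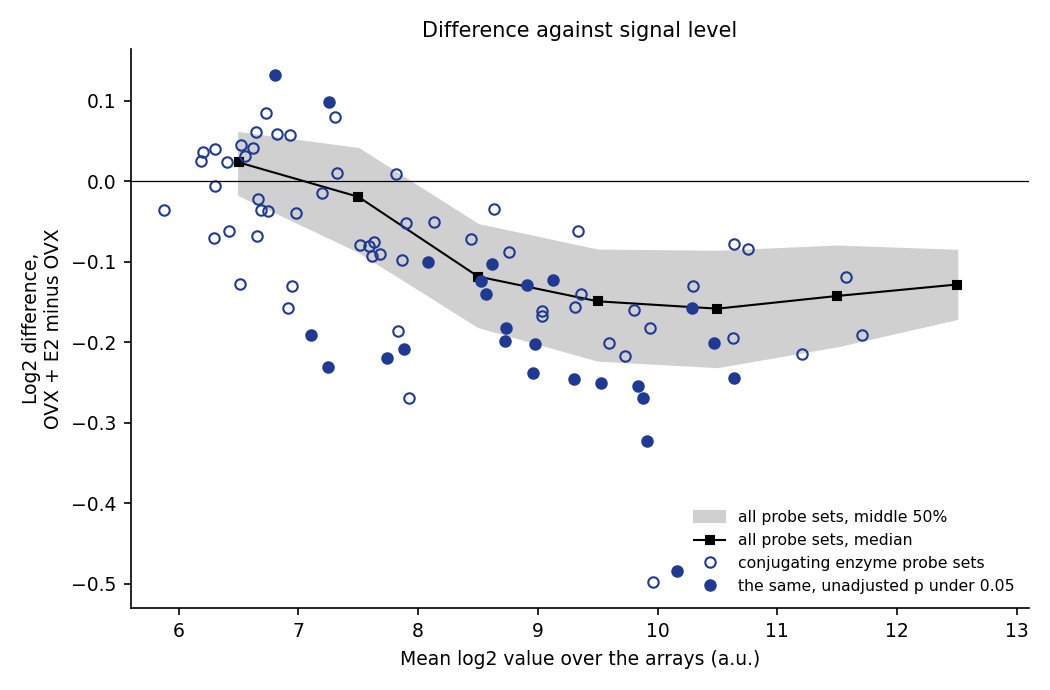
Log2 difference, OVX + E2 minus OVX, of the 82 member probe sets (circles, filled where the unadjusted p is under 0.05) against the mean log2 value over the arrays. The line and the grey band give the median and the middle 50% of all probe sets in steps of 1 log2 unit. Under 8 the members lie on both sides of 0, 26 of 42 below it, and from 8 upward all 40 members lie below 0.

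Normalizations that even out the arrays over the range of signal made the differences smaller. After cyclic loess 4 member genes were lower at a p under 0.05, where 3.35% of all genes were, and after quantile normalization also 4, where 2.56% were. They were Ube2n, Ube2q2, Ube2s and Ube2e1 in both cases. Ube2v1 was at -0.066 after cyclic loess (p of 0.067) and at -0.041 after quantile normalization (p of 0.27), and Ube2h at -0.11 (p of 0.076) and -0.092 (p of 0.1). Centring each array on its median, which leaves the dependence on signal in place, gave 11 genes lower, where 13.5% of all genes were.

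**Figure D4:**
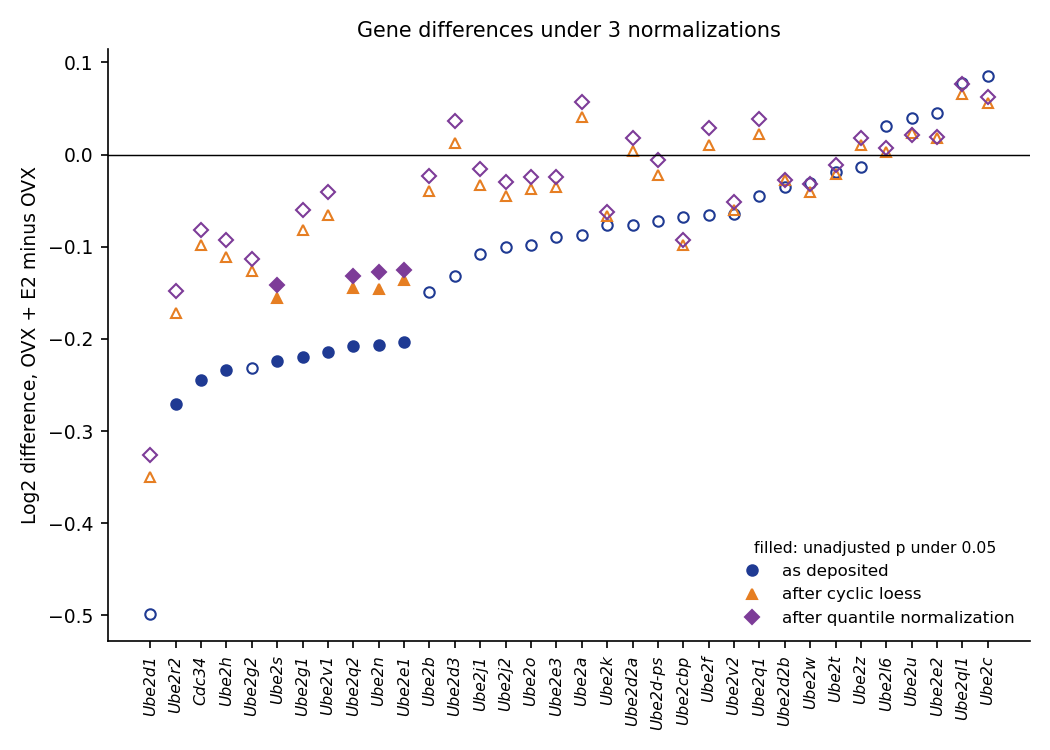
Log2 difference, OVX + E2 minus OVX, of each of the 34 genes as deposited, after cyclic loess and after quantile normalization, ordered by the deposited difference and filled where the unadjusted p is under 0.05. As deposited 29 genes lie below 0 and 9 are filled, and after either normalization 23 lie below 0 and 4 are filled.

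The arrays of a group did not contribute alike. The median deviation of the member genes from their mean over the arrays was 0.057, 0.013 and 0.13 in the OVX arrays, against -0.037, -0.031 and -0.078 in the OVX + E2 arrays. All OVX arrays thus lay above all OVX + E2 arrays, with the replicates numbered 3 farthest apart. OVX replicate 3 was the highest array for 19 of 34 members (55.9%), against 23.1% of all genes, and OVX + E2 replicate 3 the lowest for 21 (61.8%), against 26.7%. Both held for 16 members (47.1%), against 12.4% of all genes, and among genes at 8 or more for 10 of 16 members (62.5%), against 30% of all.

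The same arrays stood apart in fast-fibre genes, which mark the fast-twitch fibres of muscle. Their mean deviation was 0.096, 0.16 and 0.74 on the OVX arrays and 0.20, -0.17 and -1.02 on the OVX + E2 arrays. All 16 of these genes lay below 0 and 5 were lower at a p under 0.05. Their summed level, a sum of log2 values, was 193.3 to 203.6 in OVX and 175.4 to 195.0 in OVX + E2. Without both arrays numbered 3, Ube2v1 was at -0.19 (p of 0.0038), Cdc34 at -0.19 (p of 0.02) and Ube2n at -0.15 (p of 0.012). Ube2h, at -0.14 (p of 0.052), and Ube2r2, at -0.19 (p of 0.12), no longer passed a p of 0.05 there. Of 6 fibroblast markers 6 lay below 0 and 1 was lower, with a summed level of 50.8 to 52.9 in OVX and 49.97 to 51.4 in OVX + E2. Of the slow-fibre, fat cell, endothelial, leukocyte, erythroid and Schwann cell lists, 0 genes passed that p. Of the 22 skeletal-muscle-restricted genes, 20 lay below 0 and 4 were lower, with a summed level of 267.1 to 274.2 in OVX and 248.99 to 267.9 in OVX + E2. Their mean deviation was 0.43 on the third OVX array and -0.71 on the third one of OVX + E2. This list shares genes with the fast-fibre list, Myh4, Actn3, Mybpc2 and Pvalb among them, so the lists are not independent. Of the 15 heart-restricted genes, 3 lay below 0 and 2 were higher, with a summed level of 104.6 to 106.1 in OVX and 105.5 to 106.8 in OVX + E2. The part of these cells and of fibre make-up in the family's differences was not tested.

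**Figure D5:**
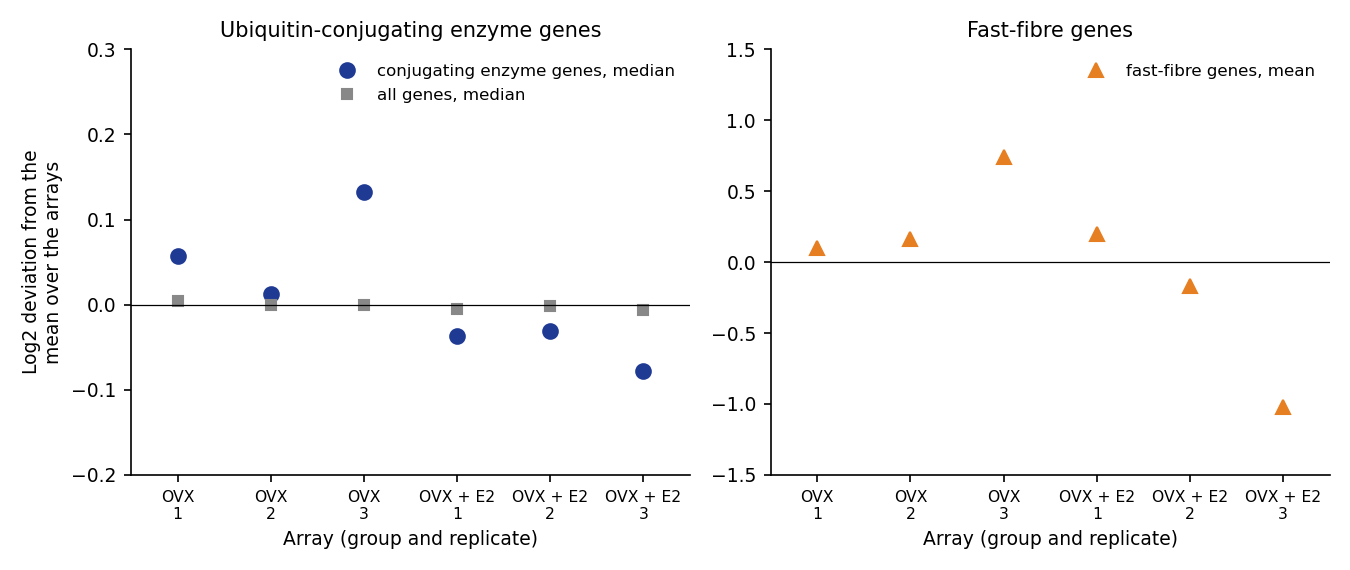
Left, median log2 deviation of the 34 member genes (circles) and of all genes (squares) from each gene's mean over the arrays. Right, mean log2 deviation of 16 fast-fibre genes, on a wider axis. Members stand highest at 0.13 (OVX replicate 3) and lowest at -0.078 (OVX + E2 replicate 3), the all-gene medians lie between -0.0065 and 0.004, and fast-fibre genes measure 0.74 and -1.02 on these arrays.

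The other steps of the pathway mostly lay below 0 too, with few calls. Of 5 measured genes for ubiquitin-like modifiers, 4 lay below 0 and 1 was lower at a p under 0.05, Nedd8, which encodes the modifier of cullins (-0.12, p of 0.0068). Of 6 activating enzymes, 5 lay below 0 and 0 passed. Of 7 conjugating-type proteins outside the rule, 7 lay below 0 and 2 were lower, Aktip (-0.091, p of 0.019) and Ufc1, the conjugating enzyme of UFM1 (-0.18, p of 0.033). The share lower at that p over all genes was 9.78%, as given above, and 32.5% among genes at a log2 value of 8 or more. The share below 0 was 53.8% over all genes and 92.1% among genes at that level.

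Among ligases that work with the members above, 12 of 15 cullin-RING genes lay below 0 and 3 were lower, among them Cul2 (-0.17, p of 0.0031) and Dcun1d5 (-0.075, p of 0.041). All 11 CTLH genes, the partners of Ube2h, lay below 0 with a median of -0.11, and 3 were lower, among them Ranbp10 (-0.14, p of 0.019) and Wdr26 (-0.15, p of 0.031). The median log2 value of the CTLH genes was 8.01. Of all genes between 8 and 9, 91.2% lay below 0, with a median of -0.106, and 28.9% were lower at that p. Of 12 ligases of lysine 63 chains, 10 lay below 0 and 1 was lower, Rnf8, a ligase of the DNA damage response (-0.19, p of 0.0013). Of 8 genes grouped with the ligases of Ube2a and Ube2b, 7 lay below 0 and 3 were lower, among them Ubr4, an N-degron ligase (-0.26, p of 0.0038), and Wac (-0.093, p of 0.02).

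Of 11 genes of endoplasmic reticulum ligases, 10 lay below 0, 2 were lower and 1 was higher. Aup1, which recruits Ube2g2, was lower by 0.15 (p of 0.0023), and Derl3 was higher by 0.15 (p of 0.042). Of 14 genes of the anaphase-promoting complex, 11 lay below 0, 4 were lower and 1 was higher, with Anapc2 at -0.20 (p of 0.0028) and Anapc13 at -0.22 (p of 0.0079). Of 6 SUMO ligases 1 was lower and 1 was higher, and of 17 HECT and RBR ligases 16 lay below 0 and 2 were lower, Ube3b (-0.25, p of 0.006) and Rbck1 (-0.17, p of 0.0071).

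Of 10 ubiquitin ligases known from muscle, 7 lay below 0, 4 were lower at a p under 0.05 and 1 fell at the 0.001 threshold. Their median log2 value was 9.83, and of all genes between 9 and 10, 94.0% lay below 0 and 35.8% were lower at a p under 0.05. The gene at the 0.001 threshold was Stub1, a ligase that works with chaperones, which measured 9.59, 9.67 and 9.62 in the OVX arrays and 9.37, 9.40 and 9.28 in the OVX + E2 arrays, a difference of -0.28 ± 0.043 (SE) with an unadjusted p of 0.00037. Trim54, a ligase of the contractile apparatus, was lower by 0.26 (p of 0.0019). The groups did not overlap for either gene.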

How the data were processed

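RNA of 6 samples was hybridized to Affymetrix arrays. The authors corrected the background, normalized by variance stabilization and normalization, summarised probes by median polish in R 2.14.2 (per the labels for the version), and deposited log2 values, which compress differences of dim probe sets. No per-sample column was left unused. Probe sets were named from the platform annotation, 34958 with 1 symbol, 932 with several and 9211 with none, and 64 control probe sets were kept. Each probe set, and each gene as the mean of its single-symbol probe sets, entered a two-sided limma fit (version 3.58.1, R 4.3.3, functions lmFit and eBayes) without covariates, checked on simulated data. The calls were an unadjusted p of 0.001 or less, as in the study's methods, and under 0.05, with Benjamini-Hochberg adjustment over all features.

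The family, its roles, 13 pathway lists and 10 marker lists were chosen with earlier results of these data known. Array values are printed for members with a probe set at 0.001, the 10 smallest gene p-values, the extreme differences, genes whose probe sets differ in sign with 1 at a p under 0.05, and Ube2h and Ube2v1, which the study's supplement lists from these arrays. Outside the family up to 2 genes per list are named. Array values of Ube2g2, Ube2q1, the Ube2ql1 probe set and Stub1, and the value of Derl3, were added after they were seen, with the choice of Ube2n for a start region. Alternatives were quantile normalization, cyclic loess (3 iterations), median centring, a filter on dim probe sets, a variance trend, array weights, the replicate number as a block, removal of control or cross-matching probe sets, 1 probe set per gene, and arrays left out.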

Additional observations from a re-analysis of the deposited data

How the results depend on the processing

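With 3 arrays a group, few calls survive every setting. The count of member probe sets at an unadjusted p of 0.001, 1 as deposited, was 0 after quantile normalization, after cyclic loess, with a variance trend and without both arrays numbered 3, and 2 after median centring and with array weights. It ran from 0 to 2 when 1 array was left out. Probe sets lower at a p under 0.05, 23 as deposited, were 7 after quantile normalization, 10 after cyclic loess and 9 without both arrays numbered 3, and 12 to 31 with 1 array left out, the 12 without OVX + E2 replicate 3. Probe sets higher at that p, 2 as deposited, were 1 after quantile normalization, after cyclic loess and with a variance trend, 0 after median centring, with dim probe sets removed and without both arrays numbered 3, and 0 to 1 with 1 array left out.

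Genes lower at a p under 0.05, 9 as deposited, were 4 after quantile normalization and 4 after cyclic loess, and 8 to 14 with 1 array left out, the 14 without OVX replicate 2. The family median, -0.088 as deposited, was -0.026 after quantile normalization, -0.039 after cyclic loess and -0.14 with dim probe sets removed, and lay between -0.11 and -0.058 with 1 array left out. The replicate numbers did not pair the samples (correlations of same-numbered deviations -0.13, -0.20 and -0.34). With the replicate number as a block 0 member probe sets passed 0.001, 20 were lower and 1 was higher at a p under 0.05, and 9 genes were lower.

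Over the 34 genes and the probe sets of Ube2h and Ube2v1, the direction turned after quantile normalization and cyclic loess for Ube2a (0.057 and 0.041), Ube2d2a (0.017 and 0.0039), Ube2d3 (0.036 and 0.013), Ube2f (0.028 and 0.011), Ube2q1 (0.038 and 0.023) and Ube2z (0.018 and 0.011), and after quantile normalization for the brighter probe set of Ube2v1 (0.016). Without both arrays numbered 3 it turned for Ube2d3 (0.016), Ube2e3 (0.0051), Ube2l6 (-0.10) and Ube2u (-0.012). It also turned for Ube2l6 with array weights (-0.018), Ube2b with its most variable probe set (0.011) and Ube2s without cross-matching probe sets (0.036), where the dim probe set alone is left. With 1 array left out it turned for 7 genes, whose values ran from -0.028 to 0.0057 for Ube2z (above 0 without OVX replicate 2), -0.066 to 0.0021 for Ube2w (without OVX + E2 replicate 3), -0.11 to 0.0019 for Ube2cbp (without OVX replicate 3), -0.084 to 0.0042 for Ube2d2b (without OVX replicate 3 or OVX + E2 replicate 2) and -0.058 to 0.029 for Ube2t (without OVX or OVX + E2 replicate 1). They ran from -0.048 to 0.099 for Ube2l6 (below 0 without OVX or OVX + E2 replicate 3) and from -1.4e-05 to 0.065 for Ube2u (without OVX + E2 replicate 3). Of the other values of these genes and probe sets under an alternative, 616 kept their direction and side of the threshold, 26 no longer passed and 28 newly passed. The cause of these shifts was not tested.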
